A study of Mus musculus with 18 samples.

Results

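The neuropeptide and secretory granule genes described here are 9 genes chosen by name: Calca, Resp18, Scg2, Scg5, Chga, Chgb, Pcsk1, Pcsk2 and Cpe. All 9 were found among the 26327 gene symbols of the count table. They were measured by RNA sequencing of sorted tracheal cells of untreated mice. Brush cells (7 libraries), sorted as CD45-negative, EpCAM-positive and eGFP-positive cells, were compared with EpCAM+ epithelial cells (7 libraries), sorted as CD45-negative and EpCAM-positive cells, and with CD45+ hematopoietic cells (4 libraries). All mice, including those that gave the EpCAM+ and CD45+ cells, belonged to a B6.Cg strain with the transgene Tg(RP23-268L19-EGFP)2Mik, a BAC with eGFP at the choline acetyltransferase (Chat) locus, so that the reporter and not the cell type itself defines the brush gate. No exclusion of eGFP+ cells is stated for the EpCAM+ gate. The labels give no age or sex and do not say whether libraries are from separate animals. The p-values therefore measure the spread between libraries, which may be technical.

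Peptide-secreting cells make their messengers as large precursors that enter the regulated secretory pathway. Granins condense with the precursors in the Golgi and shape the dense-core granule, the prohormone convertases cut the precursors at paired basic residues, and a carboxypeptidase trims the ends. In the airway this machinery is best known from pulmonary neuroendocrine cells, which store calcitonin gene-related peptide (CGRP). Brush (tuft) cells are a different, chemosensory kind of airway epithelial cell.

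Calca encodes both calcitonin and CGRP, which are made from the same gene by alternative splicing. It lies at chr7:114631478-114636357 on the minus strand (GENCODE vM21, GRCm38). The coding part of the last coding exon of transcript Calca-201, which holds CGRP, is shown because it carries the sites that the convertases and the carboxypeptidase act on. It spans chr7:114632443-114632599 on the minus strand, and the capitals mark runs of neighbouring codons for lysine or arginine, the paired basic residues that flank the peptide.
Calca-201 CGRP coding exon: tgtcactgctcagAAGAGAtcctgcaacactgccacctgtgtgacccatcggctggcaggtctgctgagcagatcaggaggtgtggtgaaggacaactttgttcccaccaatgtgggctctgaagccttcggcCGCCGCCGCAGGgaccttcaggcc

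Transcription of several granule genes is known to respond to cyclic AMP through the cAMP response element TGACGTCA. The 250 bases before the RefSeq start (GRCm38.p6) were searched on both strands for this motif and for its shorter forms TGACGT and TGACG, which lie within it, and for the octamer ATGCAAAT, a motif bound by POU factors. Promoters were found for 8 of the 9 members, all but Cpe. TGACGTCA was found in 3 members (Scg2, Chgb and Pcsk1), TGACGT in 5 (with Scg5 and Chga) and TGACG in 7 (with Calca and Pcsk2). TGACGTCA was present in 1.55% of all 32851 listed promoters, TGACGT in 6.47% and TGACG in 17.8%. ATGCAAAT was in 0 of the members' promoters and in 1.60% of all promoters. The match of each of the 7 members is shown within 30 bases so that its neighbouring bases can be compared, with the longest match in capitals; the capitals of Pcsk2 read TGACG on the opposite strand.
Scg2, chr1:79440076-79440105, minus strand: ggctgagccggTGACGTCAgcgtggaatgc
Chgb, chr2:132781559-132781588, plus strand: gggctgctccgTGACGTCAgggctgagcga
Pcsk1, chr13:75089768-75089797, plus strand: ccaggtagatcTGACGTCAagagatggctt
Scg5, chr2:113829249-113829278, minus strand: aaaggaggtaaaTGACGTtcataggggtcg
Chga, chr12:102554885-102554914, plus strand: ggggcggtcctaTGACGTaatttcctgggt
Calca, chr7:114636405-114636434, minus strand: gaagcacagaggTGACGcaatctgtctggg
Pcsk2, chr2:143546087-143546116, plus strand: ctggcgggcgcgCGTCAcccgggctggcgc
The full motif ends 61 bases before the start in Scg2, 65 in Chgb and 71 in Pcsk1.

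The brush libraries held 838328 to 6031711 counts each, the EpCAM+ libraries 2442601 to 6087184 and the CD45+ libraries 371652 to 7438791. The labelled cell types were checked by marker lists. All 12 markers of brush cells passed the test as higher in that group than in EpCAM+ cells, where 18.3% of all genes did. The list holds Chat, whose reporter defined the brush gate, so Chat is no separate check of the label. The summed level of the 12 markers was 10835 to 14495 CPM (counts per 1000000 after TMM scaling) in brush libraries. It was 10.3 to 40.8 CPM in EpCAM+ libraries and 395 to 791 CPM in CD45+ libraries. Summed leukocyte markers reached 36.2 to 90.2 CPM in brush libraries, 1347 to 3700 CPM in EpCAM+ libraries, where Lyz2 held most of it, and 9521 to 21579.6 CPM in CD45+ libraries. Summed club cell markers reached 397 to 3381 CPM in brush libraries and 34219 to 166051 CPM in EpCAM+ libraries. In each group the library with the lowest median Spearman correlation over genes with the rest of its group is here said to stand apart. This rule takes 1 library per group whatever the values. They were brush replicate 4 (median 0.849), EpCAM+ replicate 5 (0.810) and CD45+ replicate 1 (0.759). The next lowest in these groups were at 0.922, 0.895 and 0.921. Brush replicate 4 and CD45+ replicate 1 were also the smallest libraries. Without these 3 libraries 2 calls of members changed, those of Pcsk1 between brush and EpCAM+ cells and of Scg5 between EpCAM+ and CD45+ cells, and the values are given beside them.

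Brush cells held more RNA of most members than EpCAM+ cells did, with 1 large exception. Calca, Resp18, Scg2, Scg5 and Pcsk1 were higher in brush cells, Chga was far lower, and Chgb and Cpe did not pass the test. By edgeR's quasi-likelihood test with Benjamini-Hochberg adjustment over all 13418 genes tested, 5 of the 8 tested members were thus higher and 1 was lower at an adjusted p below 0.05, where 40.3% of all genes were called in either direction, 18.3% higher and 22.0% lower. The median log2 fold change over the 8 tested members was 2.57, against -0.06 over all genes. Pcsk2 did not pass the filter on low counts. Of the 8 that did, Resp18, Scg2 and Pcsk1 passed only through the brush libraries, the group in which they were high, so the count and the median describe the members that passed and not the list. In bulk samples more cells with a transcript and more RNA per cell cannot be told apart.

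**Figure D1:**
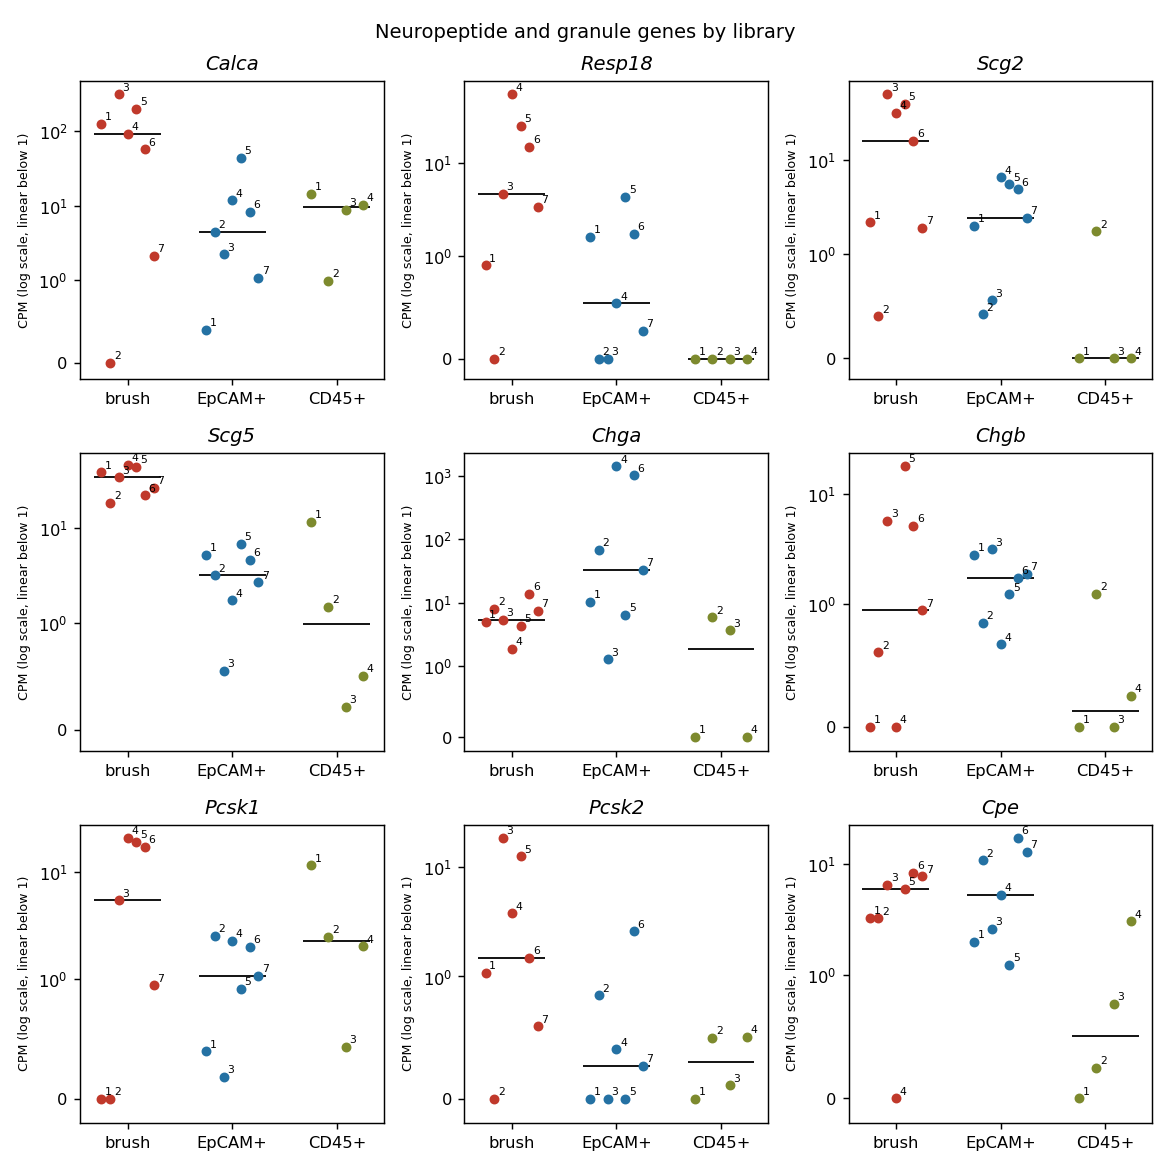
Each panel shows 1 gene in CPM, on a log axis that is linear below 1 CPM, with 1 point per library labelled by its replicate number and a line at the group median; brush cells are at the left, EpCAM+ cells in the middle and CD45+ cells at the right. Scg5 is at 18.2 to 45.1 CPM in brush libraries and at no more than 11.5 CPM elsewhere, and Chga reaches 1416 CPM in EpCAM+ replicate 4.

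Calca was the member with the highest level per length in brush cells. In brush libraries it ranged from 0 through a median of 92.1 to 313 CPM, against 0.400, 4.45 and 43.7 CPM as the lowest, median and highest in EpCAM+ libraries. The groups overlapped: 5 of the 7 brush libraries lay above the highest EpCAM+ library, while brush replicate 7 had 2.14 CPM and brush replicate 2 had 0 counts, which allows a level of up to 0.606 CPM. The mean was 113 ± 113 CPM in the brush libraries, against 10.3 ± 15.3 CPM in the EpCAM+ libraries (SD, n = 7 each). On the log2 scale the difference was 3.46 ± 1.00 (SE, adjusted p = 0.00757). Without brush replicate 3 it was 2.86 (adjusted p = 0.0279), without EpCAM+ replicate 5, the highest of its group, 4.50 (adjusted p = 0.000791), and without the 3 libraries that stood apart 4.55 (adjusted p = 0.00150). Gene-level counts do not separate calcitonin from CGRP transcripts, and the neighbouring paralog Calcb may share reads with Calca. Calcb itself, named after its values were seen, had a mean of 2.88 ± 5.59 CPM in the brush libraries, against 12.5 ± 8.02 CPM in the EpCAM+ libraries (SD, n = 7 each, log2 fold change -2.49, adjusted p = 0.0363).

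The granins and granin-related genes differed in how evenly they were found across brush libraries. Scg5 encodes 7B2, the chaperone that the convertase PC2 needs to mature, and lies at chr2:113776362-113829121 on the minus strand. It was the most even member, at 18.2 to 45.1 CPM (median 33.5) in brush libraries against 0.556 to 6.77 CPM (median 3.18) in EpCAM+ libraries. Every brush library lay above every EpCAM+ library, an arrangement that 9.54% of all tested genes showed in this direction. The log2 fold change was 3.21 ± 0.51 (SE, adjusted p = 2.01e-05), and it passed the test under all 28 alternative settings, at 3.00 to 3.46.

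Scg2 encodes secretogranin II, a granin and the precursor of secretoneurin, at chr1:79434669-79440120 on the minus strand. Its lowest, median and highest levels were 0.404, 15.9 and 50.2 CPM in brush libraries, against 0.424, 2.42 and 6.58 CPM in EpCAM+ libraries. Replicates 3, 4, 5 and 6 of the brush cells lay above every EpCAM+ library, and replicates 1, 2 and 7 lay within the EpCAM+ range or just under it. The log2 fold change was 2.60 ± 0.84 (SE, adjusted p = 0.0165), and without brush replicate 3 it was 2.10 (adjusted p = 0.0633), no longer past the threshold.

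Resp18 encodes a resident protein of the regulated endocrine secretory pathway, at chr1:75272199-75278415 on the minus strand. It was at 0 to 54.5 CPM (median 4.59) in brush libraries and at 0 to 4.31 CPM (median 0.537) in EpCAM+ libraries. Brush replicates 4, 5 and 6 were highest, at 54.5, 24.9 and 14.9 CPM, and brush replicate 2 and EpCAM+ replicates 2 and 3 had 0 counts. On the log2 scale the difference was 3.53 ± 1.06 (SE, adjusted p = 0.0117), and it was 2.74 (adjusted p = 0.0386) without brush replicate 4, 4.36 (adjusted p = 0.00400) without EpCAM+ replicate 5 and 3.63 (adjusted p = 0.0112) without the 3 libraries that stood apart. The annotated gene Gm28902 overlaps Resp18 on the opposite strand, and without a stated strand setting the reads of the pair cannot be told apart.

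Chga encodes chromogranin A, the granin most used to mark neuroendocrine cells, at chr12:102554969-102565028 on the plus strand. Here the order was turned round. Brush libraries held 1.88 to 13.8 CPM (median 5.40), against 1.30 to 1416 CPM (median 33.6) in EpCAM+ libraries. The EpCAM+ level came mostly from replicates 4 and 6, at 1416 and 1030 CPM, and replicate 4 alone held 72.1% of the group's Chga counts. Of the other 5 EpCAM+ libraries, replicates 2 and 7 also lay above every brush library, at 68.2 and 33.6 CPM, replicates 1 and 5 lay within the brush range and replicate 3 lay under it, at 1.30 CPM. The mean was 6.60 ± 3.80 CPM in the brush libraries, against 367 ± 596 CPM in the EpCAM+ libraries (SD, n = 7 each). On the log2 scale the difference was -5.70 ± 1.19 (SE, adjusted p = 0.000463). It was -4.76 (adjusted p = 0.00153) without EpCAM+ replicate 4 and -5.19 (adjusted p = 0.00108) without replicate 6.

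Chgb encodes chromogranin B, at chr2:132781278-132795079 on the plus strand, and its level was low in both groups. It was at 0 to 17.9 CPM (median 0.949) in brush libraries and at 0.672 to 3.15 CPM (median 1.72) in EpCAM+ libraries. Brush replicates 3, 5 and 6 lay above every EpCAM+ library and replicates 1 and 4 had 0 counts. On the log2 scale the difference was 1.30 ± 0.83 (SE, adjusted p = 0.228), which did not pass the test.

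Of the processing enzymes, Pcsk1 passed the test, Cpe did not, and Pcsk2 was too low to be tested. Pcsk1, which encodes the convertase PC1/3, lies at chr13:75089826-75134861 on the plus strand. It was at 0 to 20.7 CPM (median 5.40) in brush libraries and at 0.185 to 2.54 CPM (median 1.07) in EpCAM+ libraries. The 4 brush replicates 3 to 6 lay above every EpCAM+ library, at 5.40, 20.7, 19.0 and 17.0 CPM, and brush replicates 1 and 2 had 0 counts. On the log2 scale the difference was 2.55 ± 0.94 (SE, adjusted p = 0.0336). This call rested on single libraries: without any 1 of brush replicates 4, 5 or 6 or EpCAM+ replicates 1, 3 or 7 the adjusted p was 0.0564 to 0.0847, and without the 3 libraries that stood apart it was 0.0798.

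Pcsk2 encodes the convertase PC2, the partner of 7B2, at chr2:143546156-143816285 on the plus strand, where Pcsk2os1 and Pcsk2os2 overlap it on the opposite strand. It was at 0 to 18.4 CPM (median 1.49) in brush libraries and at 0 to 2.59 CPM (median 0.269) in EpCAM+ libraries. Brush replicates 3, 4 and 5 lay above every EpCAM+ library. The 3.76 CPM of replicate 4 stand for 2 counts, in a library where 3 counts are 5.64 CPM. With no filter on low counts the log2 fold change of Pcsk2 was 3.13 (adjusted p = 0.0112). Cpe encodes carboxypeptidase E, which trims the basic residues left by the convertases, at chr8:64592542-64693054 on the minus strand. It was at 0 to 8.29 CPM (median 5.96) in brush libraries and at 1.23 to 17.2 CPM (median 5.24) in EpCAM+ libraries, with wide overlap and a log2 difference of -0.48 ± 0.58 (SE, adjusted p = 0.544).

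The choice of test mattered for these uneven genes. With limma voom in place of edgeR, Scg5 was the only member past the threshold between brush and EpCAM+ cells. Calca then had a log2 fold change of 2.11 (adjusted p = 0.308), Resp18 of 2.35 (0.118), Scg2 of 1.25 (0.347), Pcsk1 of 0.45 (0.791) and Chga of -2.73 (0.101).

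**Figure D2:**
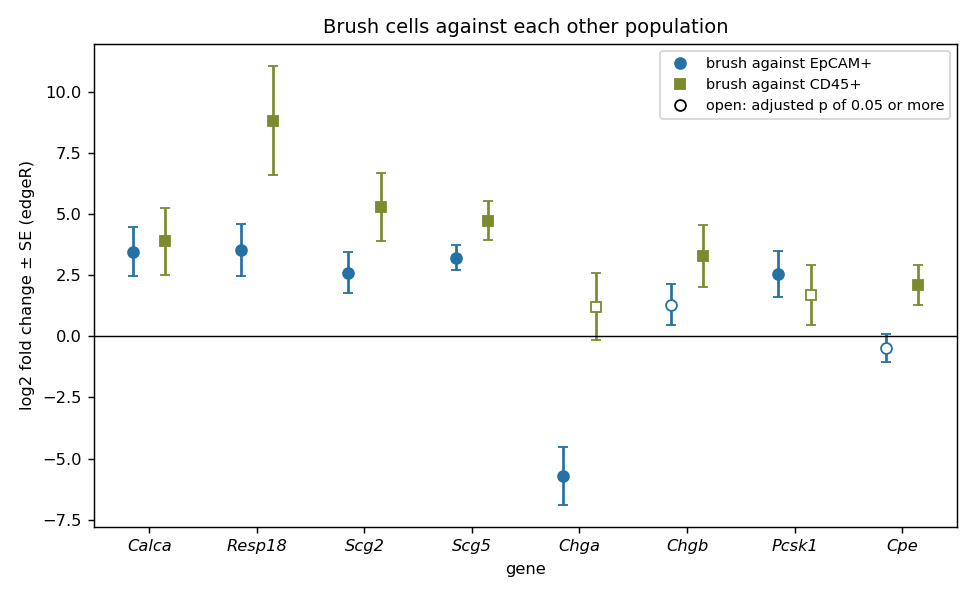
The log2 fold change with its standard error (edgeR) is plotted for the 8 tested members, with brush cells against EpCAM+ cells as circles and against CD45+ cells as squares; open symbols have an adjusted p of 0.05 or more. Both comparisons use the same brush libraries, and the value of Resp18 against CD45+ cells, which had 0 counts, depends on the prior count. Chga lies at -5.70 against EpCAM+ cells, below 0, and at 1.21 with an open symbol against CD45+ cells.

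Against CD45+ cells, 6 of the 8 tested members were higher in brush cells (Calca, Resp18, Scg2, Scg5, Chgb and Cpe) and 0 were lower, where 45.8% of all genes were called, 23.4% higher and 22.4% lower. At an unadjusted p below 0.05, and by DESeq2 and voom, likewise 0 members were lower. Resp18, Scg2 and Pcsk1 were retained for testing because of their brush levels alone. The count of 6 and the median that follows are thus partly set by the filter, and describe the retained members rather than the whole list. The median over the tested members was 3.58, against 0.05 over all genes, and also 3.58 with Resp18 at the bound given next. Resp18 had 0 counts in all 4 CD45+ libraries, so that brush cells were at least 38.3-fold higher when 3 counts over the CD45+ group are taken as the floor. Scg2 had counts in 1 CD45+ library (1.74 CPM in replicate 2) and a log2 difference of 5.30 ± 1.40 (SE, adjusted p = 0.00317). It was 4.56 (adjusted p = 0.0178) without CD45+ replicate 3, and 9.41 (adjusted p = 0.00220) without replicate 2, a value that depends on the prior count because the 3 CD45+ libraries left had 0 counts. Scg5 was at 11.5, 1.49, 0.218 and 0.506 CPM in the 4 CD45+ libraries. Its groups did not overlap, which held for 16.8% of all genes in this direction, and its log2 fold change was 4.73 ± 0.81 (SE, adjusted p = 3.87e-05). The 11.5 CPM of CD45+ replicate 1 stand for 4 counts; the value was 5.54 (adjusted p = 1.82e-06) without this library, 4.03 (adjusted p = 0.000497) without CD45+ replicate 3 and 5.52 (adjusted p = 1.28e-06) without the 3 libraries that stood apart.

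Calca was found in every CD45+ library, at 14.3, 0.994, 8.84 and 10.4 CPM. Brush cells exceeded this by a log2 difference of 3.88 ± 1.35 (SE, adjusted p = 0.0216), and the call was lost without CD45+ replicate 2 or replicate 3, with an adjusted p of up to 0.0674. The calls of Chgb (log2 fold change 3.28 ± 1.26, adjusted p = 0.0375) and Cpe (2.10 ± 0.83, 0.0419) lay close to the threshold. Chgb lost its call without brush replicate 3 or 5 or CD45+ replicate 1, 3 or 4, with an adjusted p of up to 0.125, and its value was lowest at 2.33 without brush replicate 5 and highest at 5.24 without CD45+ replicate 2. Cpe lost it without brush replicate 3, 5, 6 or 7 or CD45+ replicate 1, 2 or 3, with an adjusted p of up to 0.138, and was at 3.27 (adjusted p = 0.0117) without CD45+ replicate 4. Without CD45+ replicate 3, 3 members were called. With voom Calca (log2 fold change 1.84, adjusted p = 0.445) and Chgb (1.89, 0.188) were not called. Chga (1.21 ± 1.36, 0.497) and Pcsk1 (1.70 ± 1.23, 0.275) did not pass the test.

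Between the other two populations, EpCAM+ cells were higher than CD45+ cells in 2 tested members, Chga (log2 fold change 6.91 ± 1.68, adjusted p = 0.00171) and Cpe (2.58 ± 0.83, 0.0157), where 40.5% of all genes were called and 22.5% were higher. Cpe was not called without CD45+ replicate 2 or 3 (adjusted p of up to 0.0657), nor Chga with voom (4.83, 0.0777). Without CD45+ replicate 4 the value of Cpe was 3.75 (adjusted p = 0.00528), and that of Chga was 6.01 (adjusted p = 0.00337) without EpCAM+ replicate 4 and 7.57 (adjusted p = 0.00494) without CD45+ replicate 2. Other members gained a call in some settings. Scg5, at 1.52 (adjusted p = 0.133), was called without CD45+ replicate 1 (2.33, 0.00897), without the 3 libraries that stood apart (2.10, 0.0151) and with RSEM expected counts (2.21, 0.0451). Scg2 was called without CD45+ replicate 2 (adjusted p = 0.0302), which leaves 0 counts in the CD45+ cells, and Resp18 without brush replicate 2 (adjusted p = 0.0485). The median over the tested members was 2.28, or 2.23 with Resp18 at the bound set by the 0 counts in CD45+ cells, against 0.08 over all genes. The mean of Calca was 10.3 ± 15.3 CPM in EpCAM+ cells (SD, n = 7) and 8.64 ± 5.60 CPM in CD45+ cells (SD, n = 4), a log2 difference of 0.42 ± 1.2 (SE, adjusted p = 0.827).

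Levels were compared between genes in TPM, which is scaled to transcript length. In brush cells the order of the medians was Calca at 115 TPM, Scg5 at 48.1, Resp18 at 18, Scg2 at 8.28, Chga at 4.13, Cpe at 3.05, Pcsk1 at 2.39, Chgb at 0.58 and Pcsk2 at 0.24 TPM. The range of Calca, 0 to 642 TPM, held the whole range of Scg5, 30.7 to 66.2 TPM, and every pair of neighbours in this order had overlapping ranges over the 7 libraries. In EpCAM+ cells Chga came first with a median of 17.3 TPM and Calca second with 6.5 TPM. In CD45+ cells Calca came first with 10.5 TPM, and Scg2, Chgb and Resp18 had medians of 0 TPM.

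The brush libraries differed from each other more than the group means show. In brush replicates 3 and 5, 7 of the 9 members lay above the highest EpCAM+ library, in replicates 4 and 6 it was 6 members, in replicate 1 it was Calca and Scg5, and in replicates 2 and 7 it was Scg5 alone. The members counted in replicate 4 include Pcsk2, which rested on 2 counts there. The summed level of the 9 members was 443 CPM in brush replicate 3 and 30.5 CPM in brush replicate 2. Members varied together in part. Over the 7 brush libraries Spearman's rho was 1.00 between Scg2 and Pcsk2, 0.99 between Resp18 and Pcsk1, and 0.89 between Calca and each of Scg2 and Pcsk2. It was -0.96 between Scg5 and Chga and 0.36 between Calca and Pcsk1. These are descriptions of 7 libraries that differ in depth, from 838328 to 6031711 counts, and many of the levels rest on few counts.

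**Figure D3:**
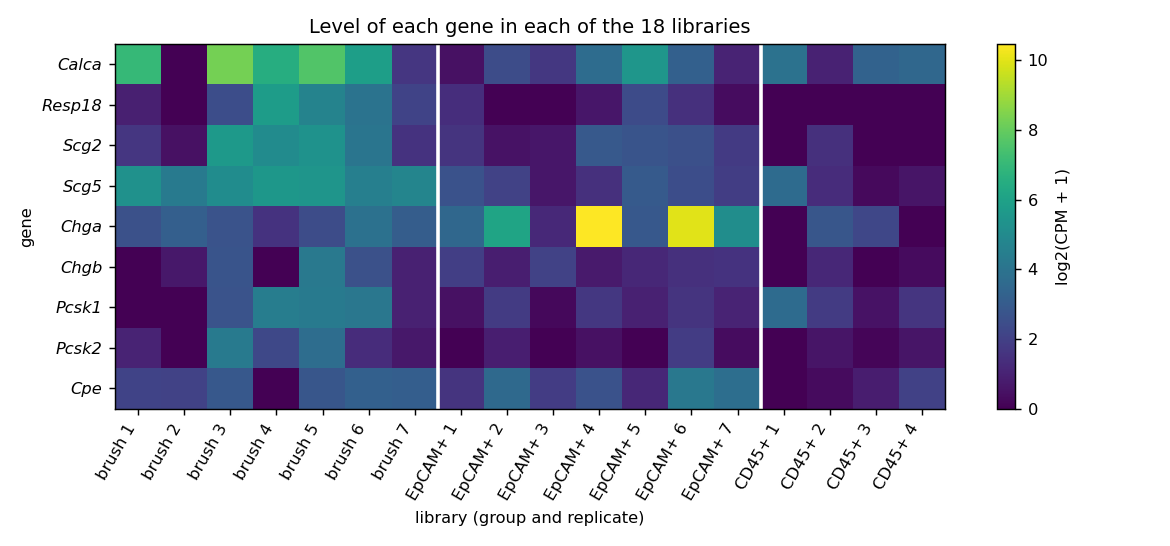
Each row is a gene and each column a library, with brush cells at the left, EpCAM+ cells in the middle and CD45+ cells at the right; the colour gives log2(CPM + 1). Brush replicates 3 to 6 hold most of the bright cells of Calca, Scg2, Resp18 and Pcsk1, Scg5 is similar in all 7 brush libraries, and Chga is brightest in EpCAM+ replicates 4 and 6.

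In EpCAM+ cells the members did not peak together. Chga was highest in replicates 4 and 6, while Calca (43.7 CPM), Resp18 (4.31 CPM) and Scg5 (6.77 CPM) were highest in replicate 5, the library that stood apart, where Chga was at 6.46 CPM. Over the 7 EpCAM+ libraries Spearman's rho was 0.86 between Chga and Pcsk1, 0.85 between Chga and Pcsk2, 0.64 between Chga and Cpe, and 0.29 between Chga and Calca. It was -0.71 between Chga and Chgb, -0.11 between Chga and Scg5, and -0.86 between Chgb and Pcsk1.

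Markers of pulmonary neuroendocrine cells other than the members moved with some of them. The summed level of the 16 markers was 33.7 to 137 CPM (median 43.5) in brush libraries, 16.7 to 77.5 CPM (median 40.8) in EpCAM+ libraries and 8.6 to 19.5 CPM (median 12.2) in CD45+ libraries. Within the brush cells the sum was highest in replicates 4, 5 and 6, at 137, 93.8 and 87.0 CPM, which were also the libraries highest in Resp18 and Pcsk1. Brush replicate 3, the highest in Calca, Scg2 and Pcsk2, was at 41.6 CPM, below the brush median. In replicate 4, the smallest brush library, Bex2 and Cplx2 gave 39.5 and 43.2 CPM of the sum, from 21 and 23 counts. Ribosomal RNA genes took 63.5, 53.4 and 36.4% of the counts of replicates 4, 5 and 6. They took 24.0 to 43.8% of those of the other 4. Of the 16 markers 3 had 0 counts in all brush libraries, which allows a level of up to 0.101 CPM over the group. They were Insm1 and Neurod1, transcription factors of neuroendocrine cells, and the neuronal stathmin gene Stmn2. Insm1 and Neurod1 were also near 0 in EpCAM+ cells, with 3 and 6 counts over the group. Th and Dbh went the other way, with 21 and 22 counts in brush cells and 0 in EpCAM+ cells, and were too low to be tested. The part of neuroendocrine cells and of RNA composition in the levels of the members was not tested.

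Of the 10 tested neuroendocrine markers, Syp was higher in brush cells than in EpCAM+ cells, Stmn2 was lower, and 8 did not pass. Over all genes 18.3% were called higher and 22.0% lower. Syp, which encodes the vesicle protein synaptophysin, had a mean of 6.28 ± 4.21 CPM in the brush libraries, against 1.44 ± 2.05 CPM in the EpCAM+ libraries (SD, n = 7 each, log2 fold change 1.96 ± 0.70, adjusted p = 0.0291). Stmn2 averaged 8.66 ± 4.61 CPM in EpCAM+ cells, and brush cells were at least 85.6-fold lower with 3 counts over the brush group as the floor. This count of 2 was 1 without brush replicate 4 or 7 or EpCAM+ replicate 3 or 4, and 4 without EpCAM+ replicate 5. Rest, which encodes the repressor of neuronal and neuroendocrine genes, was lower in brush cells: the lowest, median and highest levels were 9.99, 13.4 and 41.4 CPM in brush libraries and 18.4, 32.9 and 55.4 CPM in EpCAM+ libraries (log2 fold change -1.06 ± 0.34, adjusted p = 0.0161). Brush replicate 4 was the library at 41.4 CPM and the other 6 did not exceed 15.9 CPM.

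Of the 11 nerve and glia markers 2 were tested. Nefl, the neurofilament light chain gene, was higher in brush cells than in EpCAM+ cells and the other did not pass. Over all genes 18.3% were called higher and 22.0% lower. The filter on low counts kept Nefl through its brush libraries alone, so its call says nothing of the list. Nefl was at 45.1 to 100.2 CPM in brush libraries and had 0 counts in EpCAM+ cells, so brush cells were at least 779-fold higher. Its level was 97.2, 100.2 and 74.7 CPM in brush replicates 1, 2 and 7, the brush libraries lowest in Scg2 and Pcsk1. The nerve marker Prph and the glial gene Sox10 had 1 count each over all brush libraries.

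Other genes of the secretory granule moved in both directions. Of 38 listed granule matrix, processing and cargo genes 28 were tested. In brush cells 8 were higher and 5 were lower than in EpCAM+ cells, where 18.3% of all genes were called higher and 22.0% lower. The filter on low counts kept some of these genes through a single group, such as Ptprn2 through brush and Sytl5 through EpCAM+ libraries. The counts here and against CD45+ cells thus describe genes that the filter retained, not the 38 listed. The median log2 fold change was -0.03 beside -0.06 over all genes. Cadps2, which encodes a priming factor for dense-core vesicles, had a mean of 148 ± 30.03 CPM in the brush libraries, against 6.48 ± 2.14 CPM in the EpCAM+ libraries (SD, n = 7 each, log2 fold change 4.52 ± 0.28, adjusted p = 3.88e-11). Rab27b, a GTPase of granule docking, had means of 172 ± 10.7 CPM in the brush libraries and 73.4 ± 8.88 CPM in the EpCAM+ libraries (1.23 ± 0.29). Hid1, needed to sort cargo into dense-core granules, had a mean of 93.4 ± 14.7 CPM in the brush libraries, against 31.1 ± 14.7 CPM in the EpCAM+ libraries (1.59 ± 0.31). These genes were at a like level in all 7 brush libraries, including those with little Calca: Cadps2 ranged from 108 to 198 CPM and Rab27b from 158 to 189 CPM. Qpctl, a glutaminyl cyclase of the Golgi, had a mean of 34.5 ± 5.87 CPM in the brush libraries, against 16.9 ± 6.12 CPM in the EpCAM+ libraries (1.03 ± 0.30). Ptprn2, a tyrosine phosphatase-like protein of the granule membrane named after its values were seen, had means of 20.2 ± 3.81 CPM in the brush libraries and 1.24 ± 1.97 CPM in the EpCAM+ libraries (4.05 ± 0.70).

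The genes that were lower included Ctsl, the cathepsin L gene, at 135 ± 34.7 CPM in the brush libraries, against 675 ± 164 CPM in the EpCAM+ libraries (SD, n = 7 each, log2 fold change -2.32 ± 0.29). Cpm, a membrane-bound carboxypeptidase, had a mean of 16.0 ± 9.23 CPM in the brush libraries, against 67.1 ± 18.9 CPM in the EpCAM+ libraries (-2.03 ± 0.40). The granule GTPase Rab3d (-0.88 ± 0.27) and the Rab27 effector Sytl5 (-3.20 ± 0.75) were lower too. Pam, the enzyme that amidates the C-terminus of CGRP and other peptides, had a mean of 98.3 ± 27.4 CPM in the brush libraries, against 166 ± 34.7 CPM in the EpCAM+ libraries (-0.76 ± 0.34, adjusted p = 0.0821), and against CD45+ cells at 3.46 ± 4.03 CPM (n = 4) it was higher in brush cells (4.48 ± 0.52, adjusted p = 2.06e-07). Against CD45+ cells 12 of the 28 tested genes were higher and 5 were lower, where 23.4% of all genes were called higher and 22.4% lower. The median log2 fold change was 0.93 beside 0.05 over all genes.

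**Figure D4:**
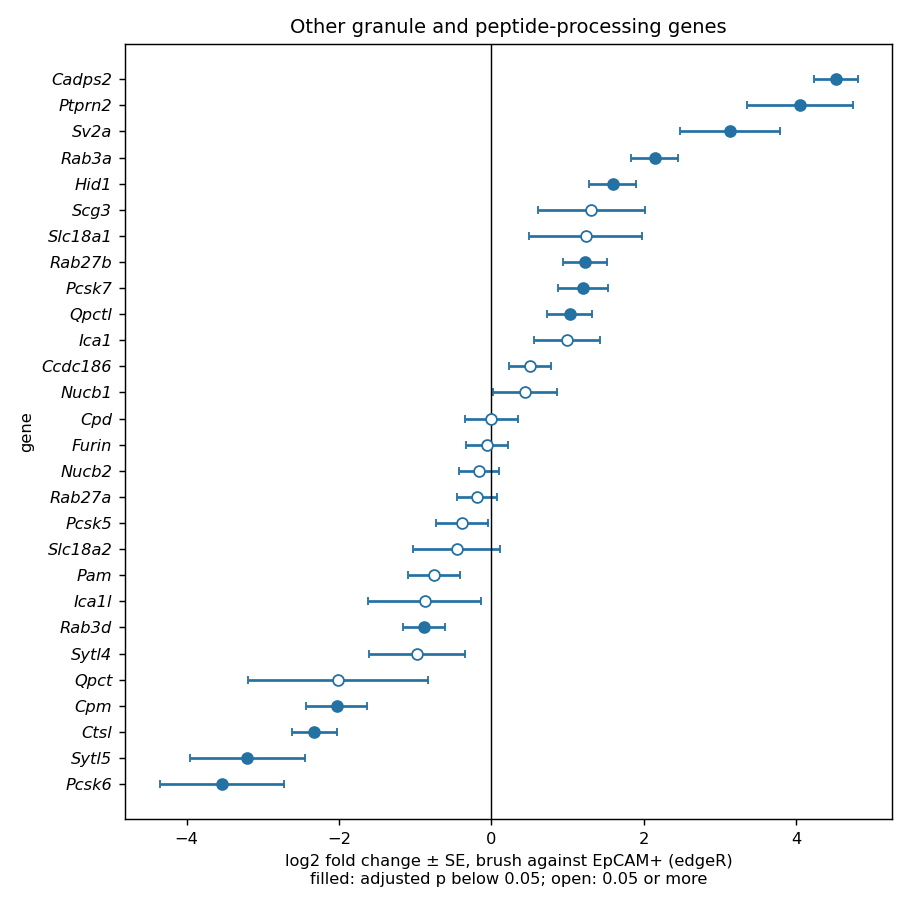
The log2 fold change of brush against EpCAM+ cells with its standard error (edgeR) is plotted for the 28 tested granule and peptide-processing genes that are not members, in rising order from the bottom; filled points have an adjusted p below 0.05. The 8 filled points at the right run up to Cadps2 at 4.52, and the 5 filled points at the left include Sytl5 at -3.20.

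Most other peptide precursor genes were scarce. Of 56 listed precursor genes 9 were tested against EpCAM+ cells; Sct and Trh were higher in brush cells and 7 were lower. Sct, the secretin gene, was found in every brush library, at 2.14 to 24.4 CPM, and Trh, the thyrotropin-releasing hormone gene, in 6 of 7, at up to 8.28 CPM. Both had 0 counts in all EpCAM+ and CD45+ libraries, so that brush cells were at least 51.0-fold higher for Sct and at least 43.2-fold higher for Trh than EpCAM+ cells. The genes lower in brush cells included Edn2 and Edn1, which encode endothelins, and Adm, which encodes adrenomedullin. Edn2 had a mean of 3.35 ± 3.27 CPM in the brush libraries, against 48.0 ± 34.8 CPM in the EpCAM+ libraries. Edn1 had 1.16 ± 0.89 CPM in the brush libraries, against 28.1 ± 12.3 CPM in the EpCAM+ libraries, and Adm 0.705 ± 0.870 CPM in the brush libraries, against 36.4 ± 13.8 CPM in the EpCAM+ libraries (SD, n = 7 each). Pthlh, the parathyroid hormone-like hormone gene, had 0 counts in brush cells, at least 155-fold lower than in EpCAM+ cells. The low-count filter kept Sct and Trh on their brush levels alone, since the other groups had 0 counts. It kept Pthlh on its EpCAM+ levels, as CD45+ cells had 1 count of it. The calls thus describe precursor genes that the filter retained, not the 56 listed. Of all genes tested, 18.3% were called higher and 22.0% lower in brush cells than in EpCAM+ cells. With no filter on low counts 15 precursor genes were called.

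Of the CGRP receptor genes, Ramp1, Ramp3 and Calcrl had their highest mean in the CD45+ cells, while Ramp2 and Crcp did not. Ramp1, the subunit that makes the receptor specific for CGRP, averaged 14.5 ± 6.85 CPM in brush cells (n = 7) and 116 ± 60.3 CPM in CD45+ cells (n = 4, log2 fold change -3.03 ± 0.48, adjusted p = 1.21e-05). EpCAM+ cells held 28.3 ± 25.1 CPM, and the difference between brush and EpCAM+ cells did not pass the test (-1.02 ± 0.42, adjusted p = 0.0540). Calcrl, the receptor's other subunit, named after its values were seen, had a mean level of 1.07 CPM in the brush libraries, 4.29 CPM in the EpCAM+ libraries and 17.02 CPM in the CD45+ libraries. Ramp2 (2.03 CPM in the brush libraries, 0.984 CPM in the EpCAM+ libraries and 0.787 CPM in the CD45+ libraries) and Crcp (30.9, 31.5 and 28.6 CPM in the same order) did not pass the test in any of the 3 comparisons. Over all genes 18.3% were called higher and 22.0% lower in brush cells than in EpCAM+ cells. Of the 13 tested genes for CGRP receptor subunits and peptidases 0 were higher and 6 were lower. At an unadjusted p below 0.05, and by DESeq2 and voom, likewise 0 were higher, and 1 was without EpCAM+ replicate 2. Mme, which encodes neprilysin, a peptidase that degrades CGRP, had a mean of 0.464 ± 0.581 CPM in the brush libraries, against 14.8 ± 6.35 CPM in the EpCAM+ libraries (SD, n = 7 each, -5.02 ± 0.59), and Ece1, an endothelin-converting enzyme, 89.0 ± 12.9 CPM in the brush and 368 ± 93.9 CPM in the EpCAM+ libraries (-2.05 ± 0.28).

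The genes whose pattern over the 18 libraries was most like that of a member were found by Pearson's r of log2(CPM + 1), given here as a description. The 18 libraries form 3 sorted groups, and the part of r that lies between groups was not separated from that within them. For Scg5 they were Pcdh17 (r = 0.95), Hoxa4 (0.93) and Kcnk3 (0.93). For Resp18 they included Piezo2 (0.88) and Meg3 (0.87). Piezo2, a mechanosensitive channel, had a mean level of 6.88 CPM in the brush libraries, 0.364 CPM in the EpCAM+ libraries and 0.136 CPM in the CD45+ libraries. For Scg2 they were Snhg11 (0.91), Resp18 (0.86) and Foxp4 (0.84), and for Calca Atp6v1d (0.72), Scg2 (0.72) and 2210016L21Rik (0.71). For Chga they were Otop3 (0.81), Serpine2 (0.81) and Ccdc81 (0.80), which were all lower in brush cells than in EpCAM+ cells. For Chgb, Pcsk1 and Cpe the gene most like each was A730017L22Rik (0.82), AI837181 (0.83) and Elmod3 (0.88).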

How the data were processed

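RNA from 18 sorted samples was sequenced. The authors deposited whole-number read counts per gene symbol, unnormalized, and, per the file headers, RSEM tables with expected counts and TPM per gene identifier. Per the submitters' processing notes the tools included STAR 2.4.2a, RSEM 1.2.21, featureCounts and DESeq2, with build mm10; neither names the annotation or strand setting, which are thus not given in the sources used. A deposited normalized table equals the counts divided by a size factor per library and was not used. Counts were tested with edgeR 4.0.16 (R 4.3.3): TMM scaling, filterByExpr by group (13418 genes kept, 12909 removed), 1 quasi-likelihood fit of all 18 libraries with group as the only term, and Benjamini-Hochberg adjustment over all genes tested. A gene was called at an adjusted p below 0.05. The standard error of a log2 fold change is its size over the square root of F. Levels are TMM-scaled CPM, and TPM where genes are compared. Floors take 3 counts and, like all counting limits, cover counting error only. Expected counts were rounded to whole numbers for 1 alternative.

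Groups came from the labels. The members and gene lists were chosen with earlier results of these data known. All members are named; of each list, up to 4 called genes per direction, those with the highest mean CPM in the higher group. No pair of libraries agreed within sampling noise (lowest chi-square per degree of freedom 6.11). The calculation was tested on simulated data. Alternatives were DESeq2 1.42.0 (size factors and Wald test), limma 3.58.1 voom, other filters, fewer groups, left-out libraries, a replicate block, no ribosomal RNA genes and RSEM expected counts. Promoters are from RefSeq (GRCm38.p6). One gene among those most like Resp18 is not reported here.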

Additional observations from a re-analysis of the deposited data

Results flagged for a closer look

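In 6 of the 27 combinations of a member and a group, 1 library lay far from the others by Dixon's criterion at 95%. Chance flags about 1 in 20 groups only where values are normally distributed, which low CPM with many zeros are not. The number flagged by chance is thus not known here, and the members are not independent of each other. Resp18 in CD45+ cells, at 0 counts in all libraries, could not be flagged. Brush replicate 5 had 17.9 CPM of Chgb, with the next brush library at 5.67 CPM. EpCAM+ replicate 5 had 43.7 CPM of Calca (next 11.8 CPM) and 4.31 CPM of Resp18 (next 1.72 CPM). This library also had the lowest median correlation with its group over genes. EpCAM+ replicate 6 had 2.59 CPM of Pcsk2 (next 0.847 CPM), which is 9 counts. CD45+ replicate 1 had 11.5 CPM of Scg5 (next 1.49 CPM), which is 4 counts in the smallest library. CD45+ replicate 2 had 1.74 CPM of Scg2, which is 7 counts, where the other 3 CD45+ libraries had 0.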

How the results depend on the processing

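Over 28 alternative settings the counts of all genes called stayed within 1.5 times the reported ones in all 3 comparisons. Members called between brush and EpCAM+ cells numbered 6 and fell to 1 with voom; leaving out 1 library gave 5 to 6. Between brush and CD45+ cells leaving out 1 library gave 3 to 6. Between EpCAM+ and CD45+ cells the count was 1 with voom and 1 with the replicate block, and leaving out 1 library gave 1 to 3. The sign of a log2 fold change turned with voom for Chgb between brush and EpCAM+ cells (-0.13), for Pcsk1 between brush and CD45+ cells (-0.0063) and for Calca between EpCAM+ and CD45+ cells (-0.27). The last was 0.42 as reported and ranged from -0.60 (without EpCAM+ replicate 5) to 0.66 when 1 library was left out, with -0.03 without CD45+ replicate 2, and was -0.45 without the 3 libraries that stood apart. None of these was past the threshold in any setting, and the cause was not tested. Scg5 in both brush comparisons, and Resp18 and Scg2 between brush and CD45+ cells, were called in all 28 settings. With replicate number as a block, 4, 4 and 1 members were called in the 3 comparisons. The labels do not say whether same-numbered libraries belong together. Of the same-numbered pairs 4 of 7, 1 of 4 and 2 of 4 had a correlation over 0.1. The same number was the best match in 2, 0 and 1 of them. So few pairs cannot decide whether the libraries are paired. In brush replicate 4 and CD45+ replicate 1, depth limits what can be seen of low members: 3 counts are 5.64 and 8.604 CPM there.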
